A study of Mus with 50 samples.

Results

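The interferon-stimulated genes are the genes that cells switch on when interferons bind their receptors, and their levels were followed over the livers of 50 mice. The set was a list of 37 genes, each read on its single-symbol probe set with the highest median. Of these, 34 were measured among 22180 named genes. Oas1a and Gbp2 sit only on probe sets shared with another gene, and no probe set carried the symbol Ifi44, so these 3 were not analysed here. The list holds 10 genes of the Ifit, Oas and Mx families, with 9 measured, and 7 Gbp, Irgm and Igtp genes, with 6 measured. The other 20 genes, with 19 measured, belong to neither family and cover the ISG15 system, transcription factors, RNA sensors, further effectors, 1 immunity-related GTPase and 1 chemokine.

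The mice were females of a C57xFVB backcross, and each carried MMTV-Neu, a transgene that places the Neu proto-oncogene under a mammary tumour virus promoter active chiefly in mammary epithelium. Breast cancer is given as a comorbidity of every mouse. The series chose livers from the extremes of a modelled grade of ageing, but the grade of each animal is not among the labels used here, so all 50 mice formed 1 group, with no untreated or tumour-free mice to set them against. Each mouse was 1 array of total RNA from whole liver by its tissue label, although the extraction protocol speaks of purified cell populations, and the animal number was the only label that differed between mice. The hepatocyte markers were high in every liver, with albumin (Alb) at a median of 13.46 and never below 13.20 on the log2 scale. Their level was not uniform, though. The mean over 8 hepatocyte markers had a median of 12.03, but it was 11.33 in animal 235 and lowest in animal 64, at 10.53.

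Interferons fall into types with separate receptors. Type I interferons signal through the kinases Jak1 and Tyk2 to a complex that holds Stat2 and Irf9 and switches on antiviral genes such as the Ifit, Oas and Mx families. Interferon-gamma, made mainly by T and NK cells, signals through Jak1 and Jak2, and the Gbp and immunity-related GTPases, which attack the vacuoles of intracellular microbes, are among its strongest targets. The division is one of degree, since many of these genes respond to both.

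Values are log2 signals after RMA, so a difference of 1 is a doubling of signal, and levels of different genes cannot be ranked as amounts. Array medians lay between 3.27 and 3.34. In 4 mice (animals 64, 84, 87 and 235) the array correlated less with the others than in the rest, at median correlations as low as 0.794 against a highest value of 0.978 over all mice. Since these are bulk livers, fewer cells of a type and less RNA per cell cannot be told apart. The table holds no detection calls. Ifit2, Mx1, Trim30a and Gbp6 had medians below 3.61, the median over all named genes.

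The members varied more between livers than most genes. Their SD over mice had a median of 0.52, against 0.21 over all named genes, and 32 of 34 members were above that value. Members spanned SDs from 0.18 for Mx1 to 1.11 for Usp18.

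**Figure D1:**
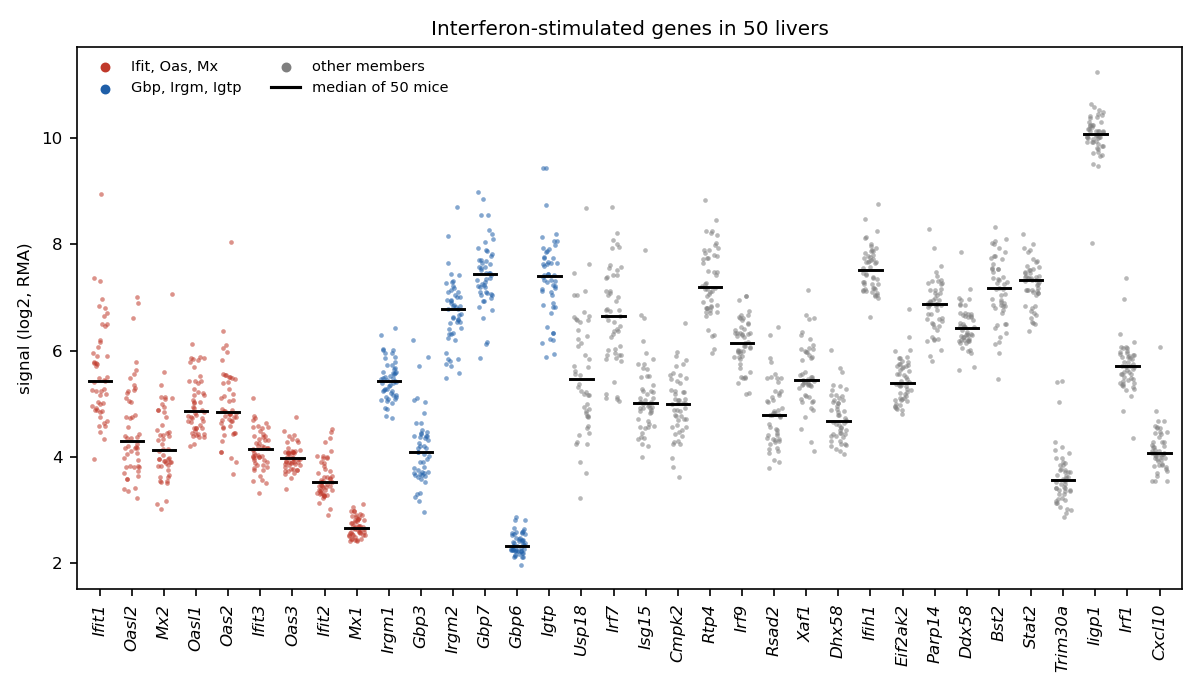
Log2 signal of the 34 measured interferon-stimulated genes in 50 livers, with 1 point per mouse and a bar at the median, grouped by family. Usp18 spans 3.23 to 8.68 and Ifit1 3.96 to 8.94, whereas Mx1 stays between 2.43 and 3.11 and Gbp6 between 1.98 and 2.87.

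Among the Ifit genes, whose proteins bind foreign RNA and block its translation, Ifit1 varied widely. Its signal was 3.96 in the lowest liver, 5.44 at the median and 8.94 in the highest, which was animal 84. The next liver, animal 292, was at 7.37, so 1 mouse stood well above the rest. Ifit2 ran from 2.92 through a median of 3.54 to 4.53, and Ifit3 from 3.33 through 4.14 to 5.12. The 3 genes did not peak in the same liver: Ifit2 was highest in animal 229 and Ifit3 in animal 265.

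The Oas genes make oligoadenylates that activate RNase L, a nuclease that cuts viral and cellular RNA, and the Oasl genes are their relatives. Oasl2 ranged from 3.23 through a median of 4.30 to 7.02. Oas2 ranged from 3.68 through 4.84 to 8.05, and its highest liver was animal 235, well above the next at 6.38 (animal 161). Oasl1, which in mouse restrains translation of Irf7, lay between 4.21 and 6.12 with a median of 4.87. Oas3 spread less, from 3.40 through 3.97 to 4.75. Animal 235 had the highest Oas2, Oas3 and Oasl2, while Oasl1 was highest in animal 84.

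The Mx proteins are dynamin-like GTPases that trap viral nucleocapsids, and many inbred mouse strains carry a defective Mx1. Mx1 stayed low and flat, with 2.43 in the lowest liver, 2.67 at the median and 3.11 in the highest. Mx2 ranged from 3.03 through 4.14 to 7.07, again with animal 84 at the top and animal 292 next, at 5.60.

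In the ISG15 system, Isg15 is a ubiquitin-like protein attached to other proteins and Usp18 removes it and also restrains the type I receptor. Usp18 had the widest spread of all members, from 3.23 in animal 91 through a median of 5.46 to 8.68 in animal 84. Isg15 ranged from 4.01 through 5.01 to 7.89. Animal 84 was the highest for both.

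Of the transcription factors, Irf7, which amplifies type I interferon production, ranged from 5.05 through 6.66 to 8.71. Irf9 ranged from 5.19 through 6.16 to 7.03 and Stat2, its partner, from 6.37 through 7.33 to 8.20. Irf1, a factor strongly induced by interferon-gamma, ranged from 4.36 through 5.71 to 7.36. Irf7 peaked in animal 235, Irf9 in animal 161, Stat2 in animal 84 and Irf1 in animal 10.

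The RNA sensors Ifih1, Ddx58 (RIG-I) and Dhx58 ranged over 6.63 to 8.77, 5.64 to 7.85 and 4.05 to 6.01. All 3 were highest in animal 84 and second highest in animal 292. The further effectors include Rsad2 (viperin), the nucleotide kinase Cmpk2, the RNA-activated kinase Eif2ak2, the ADP-ribosyltransferase Parp14 and Bst2 (tetherin, which holds budding virus at the cell surface), besides Rtp4, Xaf1 and Trim30a. Their SDs lay between 0.40 for Eif2ak2 and 0.65 for Rtp4.

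In the Gbp and Irgm family, Gbp7 ranged from 5.87 through a median of 7.45 to 8.98 and Gbp3 from 2.97 through 4.10 to 6.20. Igtp ranged from 5.89 through 7.41 to 9.44, and animals 10 and 24 shared that highest value. Irgm2 ranged from 5.48 through 6.78 to 8.70 and Irgm1, a regulator of the other immunity-related GTPases, from 4.73 through 5.44 to 6.43. Animal 10 was the highest for Gbp3, Gbp7, Irgm1, Irgm2 and Igtp. Gbp6 lay apart, at 1.98 to 2.87 with a median of 2.34. Iigp1, an effector GTPase of the same class, was at 8.02, 10.09 and 11.25 in the lowest, median and highest liver, and Cxcl10, a chemokine that draws activated T cells, at 3.56, 4.07 and 6.08. Both also peaked in animal 10.

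**Figure D2:**
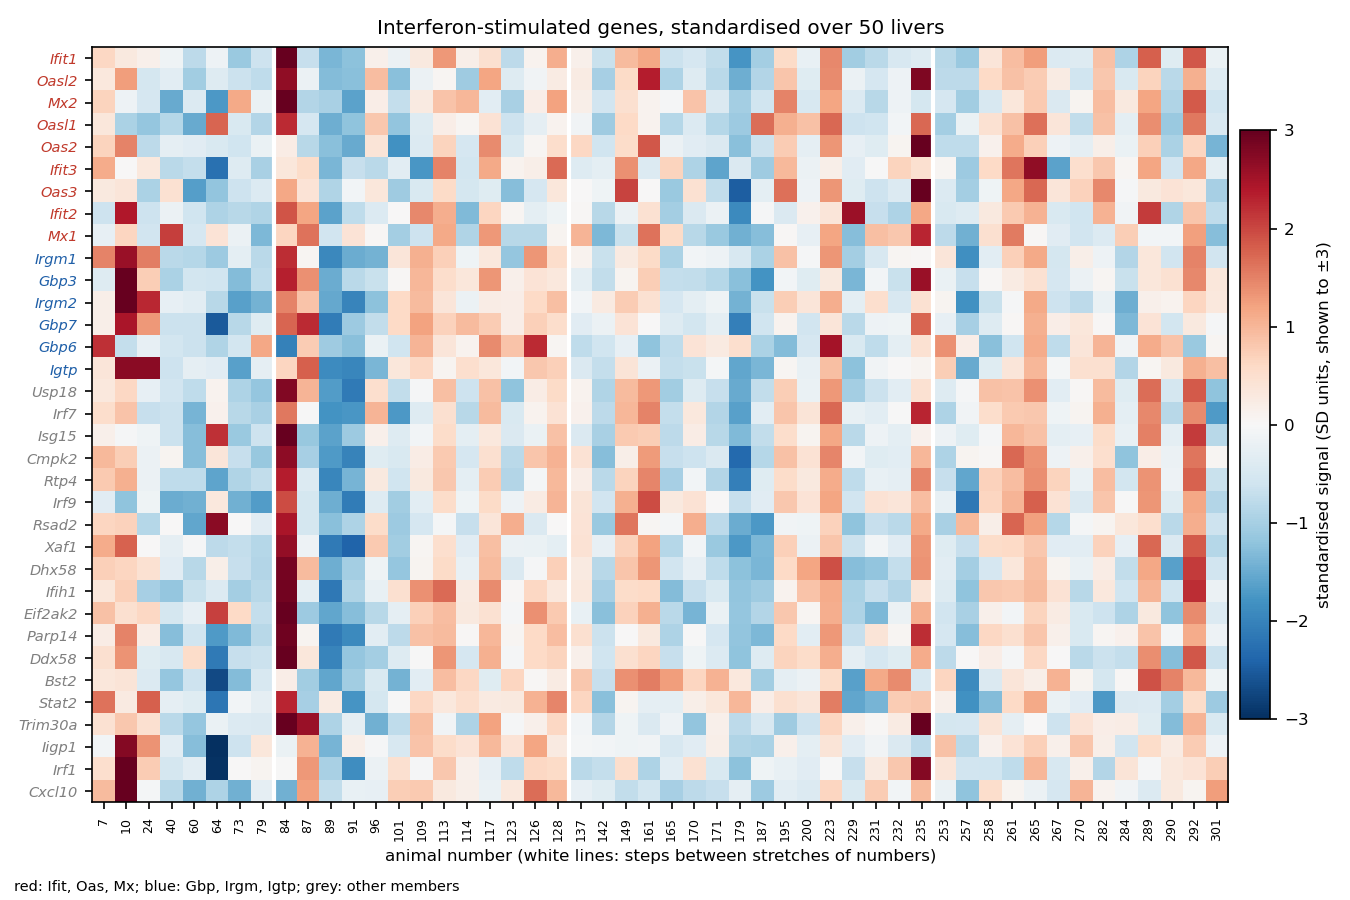
Signal of each member in each mouse as standard deviations from the gene's mean over mice, with genes in rows by family and mice in columns by animal number. Animal 84 is high over most of the type I family and the other members, animal 10 over the Gbp, Irgm and Igtp genes, and animals 89 and 91 are low for most members. Colour stops at the ends of the scale, and white lines part the stretches of animal numbers.

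The extreme values thus came from a few livers. Animal 84 had the highest value of 14 members and was among the highest 3 mice for 22 of 34. Animal 10 had the highest value of 8 members, namely Gbp3, Gbp7, Irgm1, Irgm2, Igtp, Irf1, Iigp1 and Cxcl10. Animal 235 was the highest for 6, and animal 292 was among the highest 3 for 11 without being the highest for any. At the low end, animals 89, 91 and 179 were among the lowest 3 mice for 20, 17 and 13 members. In animal 84 Cxcl10 (3.56) was at the low end of its range while Ifit1 and Usp18 were the highest. In animal 10 Ifit1 (5.91) and Isg15 (5.11) lay close to their medians while Igtp and Cxcl10 were the highest. Yet Ifit2 (4.47), Oas2 (6.11) and Oasl2 (5.64) in animal 10 lay above their medians of 3.54, 4.84 and 4.30. Its Ifit3 (4.15) and Mx2 (4.16) were close to their medians of 4.14 each, and its Oasl1 (4.50) lay below the median of 4.87.

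To ask whether members followed genes known to respond to type I interferon or to interferon-gamma, every named gene was fitted on a pair of indices built from genes outside the list. The type I index averaged 11 genes, among them Herc6, Ddx60, Slfn5 and Lgals3bp, of 12 chosen. The gamma index averaged 12 genes, among them Cxcl9, Ciita, Cd274, Nlrc5 and the immunoproteasome subunits Psmb8, Psmb9 and Psmb10. Both indices were scaled to an SD of 1, so a slope is the log2 change in signal per SD of an index with the other index held fixed. Slopes were tested with limma and called at a Benjamini-Hochberg adjusted p under 0.05 over all 22180 genes. Not every index gene followed its own index in this fit. Mov10 and Lgals9 were not called on the type I index (limma adjusted p = 0.459 and 0.169), nor Socs1 and Batf2 on the gamma index (0.0527 and 0.254). Phf11b, of the type I index, and Tap1, of the gamma index, rose with both. The index names are labels from known biology, and no interferon was measured as protein. Index genes can also differ with the cell content of a liver, which bulk arrays do not tell apart from a response to interferon.

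Most members rose with the type I index. The limma fit called 28 of 34 members positive, against 2.75% of all named genes, and it called 0 negative, against 0.663%. Also at an unadjusted p, 0 members were negative. The members and the genes of both indices were picked as interferon-stimulated genes, with earlier results of these data known. A share above that of all genes was thus partly built in, here and for the gamma index. The median slope of the members was 0.35, against −0.006 over all named genes. All 9 measured Ifit, Oas and Mx genes rose, as did 4 of 6 Gbp and Irgm genes and 15 of 19 others. Without animal 84, Ifit2 (adjusted p = 0.0682), Gbp7 (0.0831), Irgm2 (0.101) and Trim30a (0.174) were no longer called, and without animal 235 Mx1 was not (0.0605).

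Oasl2 rose by 0.85 ± 0.06 log2 per SD (SE, limma adjusted p = 1.31e-14), and both indices together accounted for 80.9% of its variance. Irf7 rose by 0.85 ± 0.07 (adjusted p = 3.03e-13) and Parp14 by 0.44 ± 0.03 (adjusted p = 3.02e-14), with 77.4% and 84.8% of variance accounted for. Usp18 had the steepest slope, 0.99 ± 0.10 (adjusted p = 7.33e-10), followed by Ifit1 at 0.85 ± 0.09 (adjusted p = 2.27e-09). Rtp4, Oas2, Isg15 and Mx2 rose by 0.60, 0.61, 0.61 and 0.56. The shallowest calls in the Ifit, Oas and Mx families were Mx1 at 0.10, Oas3 at 0.17, and Ifit2 and Ifit3 at 0.20 each. Stat2, at 0.21 ± 0.06 (adjusted p = 0.0386), was the weakest call by its adjusted p. Its call was lost without animal 84 (adjusted p = 0.249) and without animal 235 (0.056).

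The 6 members without a call on the type I index were Gbp6, Igtp, Irf1, Bst2, Iigp1 and Cxcl10. Bst2 had a slope of 0.29 ± 0.09 that fell just short (adjusted p = 0.0607). Igtp had 0.22 ± 0.09 (adjusted p = 0.15), and the slopes of Irf1, Iigp1 and Cxcl10 were 0.06, 0.05 and −0.02.

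Fewer members rose with the gamma index. The limma fit called 7 of 34 positive, against 2.76% of all named genes, and 5 negative, against 0.564%. The positive members were Gbp3, Gbp7, Irgm2, Igtp, Irf1, Iigp1 and Cxcl10. In the Gbp, Irgm and Igtp family 4 of 6 rose, and in the Ifit, Oas and Mx families 0 of 9 did, also at an unadjusted p. Over all members the median slope was −0.02, against −0.004 over all named genes.

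Igtp had the steepest gamma slope, 0.40 ± 0.09 (adjusted p = 0.00133). Cxcl10 rose by 0.35 ± 0.04 (adjusted p = 1.52e-08), Irf1 by 0.34 ± 0.04 (adjusted p = 3.02e-07) and Gbp7 by 0.32 ± 0.06 (adjusted p = 0.000105). Gbp3, Irgm2 and Iigp1 rose by 0.27, 0.25 and 0.24. Irgm1 had a gamma slope of 0.07 (adjusted p = 0.538) although it rose with the type I index by 0.23 (adjusted p = 0.000412). Gbp6 had no call on either index, which together accounted for 5.6% of its variance.

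Animal 10, with a gamma index 4.74 SD above the mean, carried part of these gamma calls. Without it 2 of 6 Gbp, Irgm and Igtp genes were called, as Gbp3 (slope 0.19, adjusted p = 0.0572) and Irgm2 (0.14, 0.396) lost their calls, as did Iigp1 (0.17, 0.0857) outside the family. Gbp7 (0.31, adjusted p = 0.000185), Igtp (0.33, 0.0181), Irf1 (0.25, 0.000137) and Cxcl10 (0.21, 0.000402) were still called. On normal scores of ranks in place of signals, limma called 0 of 6 in the family, with 5 at an unadjusted p.

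The 5 members with negative gamma slopes were Ifit1 (−0.34), Isg15 (−0.34), Mx2 (−0.29), Oasl1 (−0.25) and Irf9 (−0.21). These slopes hold the type I index fixed. Fitted on the gamma index alone, none of the 5 was called, and their slopes lay between −0.05 for Isg15 and 0.06 for Ifit1. All but that of Isg15 also lost their call when 1 of animals 10, 84 and 235 was left out. Animal 84 combined a type I index of 2.10 with a gamma index of −1.35, and without it Ifit1 (adjusted p = 0.195) and Mx2 (0.369) lost the negative call. Without animal 10, Oasl1, Mx2 and Irf9 lost it, and without animal 235 Mx2 did. Isg15 kept its call without each of these 3 mice, at adjusted p = 0.00113, 0.0284 and 0.0022 without animals 10, 84 and 235, but lost it without the 4 mice that stand apart (slope −0.13, adjusted p = 0.187).

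**Figure D3:**
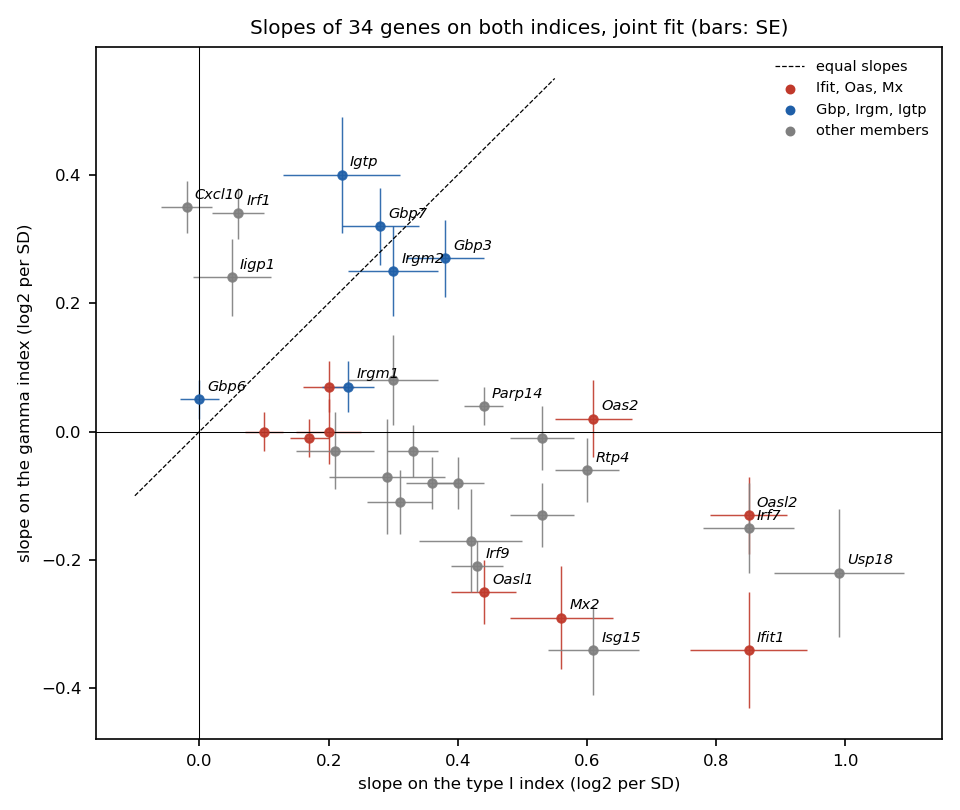
Slope of each member on the type I index (horizontal axis) and on the gamma index (vertical axis), in log2 per SD of the index, from the limma fit on both indices, with standard errors as bars. The Ifit, Oas and Mx genes lie to the right at gamma slopes near or below 0, and Gbp3, Gbp7 and Irgm2 lie above 0 on both axes, whereas Cxcl10, Irf1 and Iigp1 lie high at type I slopes near 0.

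The difference of the slopes, type I minus gamma, was tested in the same fit. It was called positive for 18 members, against 1.24% of all named genes, and called negative for 2, against 0.884%. By sign alone, called or not, 28 of 34 differences were positive. The largest called differences were those of Usp18 (1.21 ± 0.18, adjusted p = 1.24e-05), Ifit1 (1.18 ± 0.16, 1.82e-06), Irf7 (1.0 ± 0.12, 1.33e-07) and Oasl2 (0.98 ± 0.11, 1.88e-08). Of the 9 Ifit, Oas and Mx genes, Ifit1, Oas2, Oasl1, Oasl2 and Mx2 had a called difference. The differences of Ifit2 (0.13), Ifit3 (0.20), Mx1 (0.10) and Oas3 (0.18, adjusted p = 0.0578) were positive but not called. On normal scores of ranks, limma called 2 positive and 0 negative differences among the members. Without animal 84 the differences of Rsad2 (0.51, adjusted p = 0.0747), Ddx58 (0.24, 0.0502) and Eif2ak2 (0.31, 0.0635) were not called.

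The 2 members whose gamma slope was called steeper were Cxcl10 (−0.37 ± 0.07, adjusted p = 0.00097) and Irf1 (−0.28 ± 0.08, 0.0367). Neither was called without animal 10 (adjusted p = 0.0919 and 0.223). In the Gbp, Irgm and Igtp family, limma called 0 of 6 differences in either direction, and 1 was positive at an unadjusted p, that of Irgm1 (0.16). The 6 values lay between −0.19 for Igtp and 0.16, so these genes were not shown to follow the gamma index more than the type I index. The standard error of the difference was 0.15 for Igtp and 0.10 for both Gbp3 and Gbp7. Whether the 2 families as such differ was not tested.

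Over mice the families moved together in part. As a description, the mean standardised signals of the Ifit, Oas and Mx genes and of the Gbp, Irgm and Igtp genes correlated at r = 0.591 (Spearman's rho 0.584, n = 50 mice, sharing 1 array per mouse). Within the 4 stretches of animal numbers that were found from these data (7 to 79, 84 to 128, 137 to 235 and 253 to 301, with 8, 13, 16 and 13 mice) r was 0.662, 0.592, 0.851 and 0.584. Single mice left this line. Animal 24 had a type I family score of −0.52 and a gamma family score of 1.38, and animal 87 scored 0.07 and 1.18. Animal 161 had 0.81 and 0.06.

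In animal 84 the gamma family and the gamma index parted. Its Gbp, Irgm and Igtp score was 1.07, with Gbp7 at 8.55 and Irgm1 at 6.29, both above their medians of 7.45 and 5.44, while the gamma index was −1.35. In animal 10 the gamma family score of 2.20 went with a gamma index of 4.74 and a type I index of 1.62.

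The indices themselves, which hold no member, correlated over the 50 mice (Pearson's r = 0.470, permutation p = 0.00064; Spearman's rho = 0.443, permutation p = 0.00119, both two-sided). The relation rested partly on the mice at the ends: without animals 10 and 235, the farthest on the gamma index, r was 0.273 (permutation p = 0.0607) and rho 0.360 (permutation p = 0.0125). Without animals 84 and 235, the farthest on the type I index, r was 0.497. Within the stretches in order of animal number r was 0.925, 0.276, 0.740 and 0.221, so the relation was loose in the second and the fourth.

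**Figure D4:**
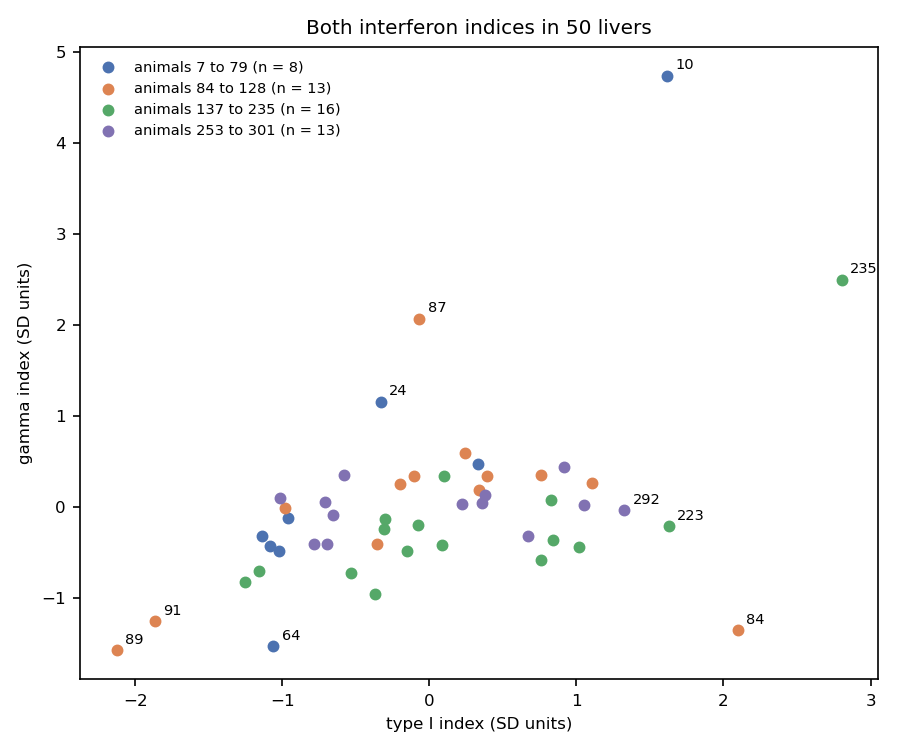
Type I index (horizontal axis) and gamma index (vertical axis) of each of 50 livers, in SD units, coloured by stretch of animal numbers. Animal 10 lies highest on the gamma index, at 4.74, animal 235 is high on both (2.80 and 2.50), animal 84 combines 2.10 with −1.35, and animals 89 and 91 lie low on both.

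Pairs of members correlated at a mean r of 0.482 over 561 pairs, of which 547 were positive, against a mean of 0.001 over pairs of all named genes. The mean r was 0.512 within the Ifit, Oas and Mx families (36 pairs), 0.578 within the Gbp, Irgm and Igtp family (15 pairs) and 0.358 between the families (54 pairs). These are descriptions over 50 livers that share arrays and cell content, and no test was made of the differences.

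**Figure D5:**
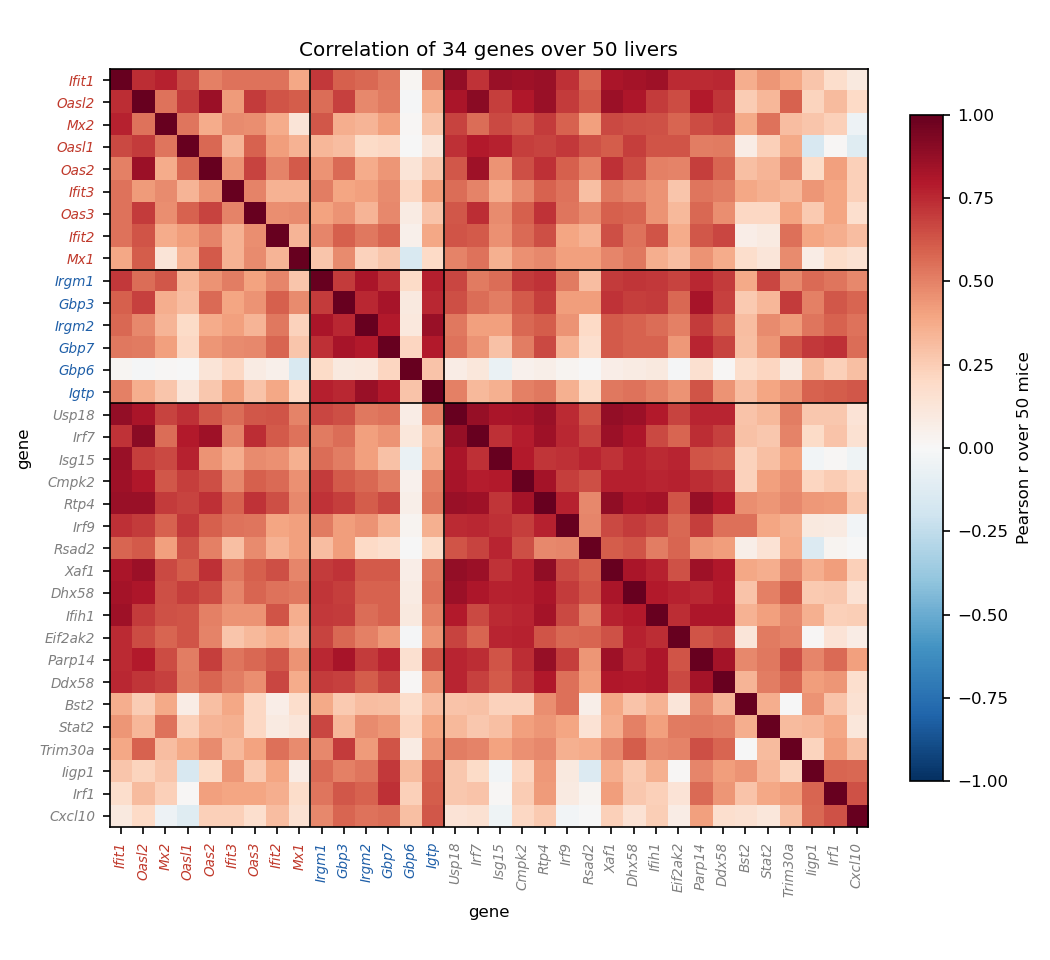
Pearson correlation between members over 50 livers, with genes ordered by family. Most pairs are red, the deepest being Oasl2 with Irf7 at 0.901, and Irgm2 with Igtp (0.860) and Gbp3 with Gbp7 (0.825) stand out in the Gbp, Irgm and Igtp square, while Gbp6 is pale throughout.

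The closest pair was Oasl2 and Irf7, at r = 0.901 and rho = 0.918. Rtp4 and Xaf1 followed at 0.890, Usp18 and Xaf1 at 0.881, and Ifit1 and Usp18 at 0.881. Rtp4 had the highest mean correlation with the other members, 0.649, then Parp14 at 0.644 and Xaf1 at 0.627. At the other end, Gbp6 averaged 0.098, Cxcl10 0.245 and Bst2 0.280. The lowest r was that of Oasl1 and Iigp1, at −0.157, with rho at 0.020, and Mx1 and Gbp6 were negative on both measures (r = −0.151, rho = −0.218).

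Several members are neighbours in the genome, with no other protein-coding gene between them in the RefSeq annotation of assembly GRCm38.p6. Irgm2 and Igtp correlated at 0.860, Gbp3 and Gbp7 at 0.825, Oasl1 and Oasl2 at 0.696, Oas2 and Oas3 at 0.679, and Rsad2 and Cmpk2 at 0.644. Ifit2 and Ifit3, also neighbours, correlated at 0.346 only. Oasl2 correlated more closely with Irf7 than with its neighbour Oasl1.

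After both indices were regressed out, the mean r was 0.114 within the Ifit, Oas and Mx families, 0.012 between the families and 0.344 within the Gbp, Irgm and Igtp family. Irgm2 and Igtp kept 0.733 and Irgm1 and Irgm2 0.626. Ifit1 kept 0.696 with Usp18 and 0.678 with Isg15, and Oasl2 kept 0.532 with Irf7. The neighbours Gbp3 and Gbp7 were left with 0.443 and Rsad2 and Cmpk2 with 0.325.

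No member was called on the animal number, against 3.52% of all named genes. In that limma fit, 3 of 34 passed at an unadjusted p, against 16.3% of all named genes: Irf9 (0.19 ± 0.07 log2 per 100 numbers, unadjusted p = 0.0075, adjusted p = 0.114), Bst2 (0.24 ± 0.10, 0.0154, 0.17) and Oasl1 (0.17 ± 0.08, 0.0411, 0.278). Without the 4 mice that stand apart Irf9 was called, with a slope of 0.22 (adjusted p = 0.0434), and without the 6 that stand apart when all named genes are used, Irf9 and Oasl1 were (0.23 and 0.24, adjusted p = 0.0275 and 0.0396). The labels do not say what the number stands for.

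The machinery upstream was taken from a list of 41 ligands, receptors, signalling factors, restraints and sensors, with 36 measured. In limma, 5 of 36 rose with the type I index, against 2.75% of all named genes, and 5 with the gamma index, against 2.76%. With either index 0 fell, also at an unadjusted p, against 0.663% and 0.564% of all named genes called negative. Socs1, 1 of the 36, is also part of the gamma index, so its slope there is partly built in, and it was not called. Among the ligand genes, medians lay between 2.40 for Ifnb1 (2.11 to 2.73) and 6.28 for Ifnl2 (5.66 to 6.81), with Ifna1 at 5.88 (4.80 to 6.71), Ifna4 at 4.80 (4.17 to 5.36) and Ifng at 2.70 (2.46 to 3.13). None of the 9 ligands was called on either index, and only Ifng passed at an unadjusted p, on the gamma index (slope 0.06, adjusted p = 0.163).

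Among receptors only Il10rb, a subunit of the lambda interferon receptor, was called, rising with the type I index by 0.28 (adjusted p = 0.0025). Adar, an RNA editor that keeps cellular RNA from being sensed, rose with it by 0.28 (adjusted p = 7.32e-08), as did the RNA sensors Tlr3 (0.24, 0.00557) and Tlr7 (0.27, 0.0308). Zbp1, a sensor of Z-form nucleic acid, rose with both indices, by 0.41 and 0.19. Irf8 (0.27, adjusted p = 5.01e-05), Ptpn6 (0.24, 0.0101), Tlr9 (0.24, 1.85e-05) and the DNA sensor Aim2 (0.39, 4.34e-06) rose with the gamma index.

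Outside the list and the indices, the genes with the largest t on the type I index were Rnf213, Oas1g, Gm5431, Zbp1 and Adar. Oas1g, a relative of the unmeasured Oas1a, ranged from 2.86 through 3.86 to 7.65 and rose by 0.93 ± 0.08 (adjusted p = 5.54e-12). On the gamma index they were H2-DMa, Rasgrp1, Gbp5, Slamf7 and Cd3g. Gbp5, a further guanylate-binding protein, rose by 0.44 ± 0.04 with the gamma index (adjusted p = 9.63e-11) and had a type I slope of 0.04, with a called difference of −0.40 (adjusted p = 0.0003) that none of the 6 measured Gbp, Irgm and Igtp members had.

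Markers of immune cells moved with the indices. On the gamma index 6 of 10 Kupffer cell markers, 8 of 11 T and NK cell markers, 4 of 4 measured B cell markers and 2 of 5 monocyte markers rose. Of all named genes 2.76% were called positive on that index. At an unadjusted p, 9 of 10 Kupffer cell markers were positive on the gamma index and 8 of 10 on the type I index. On the type I index 2 of 10 Kupffer cell markers and 3 of 5 endothelial markers rose at the adjusted threshold, against 2.75% of all named genes. Of the T and NK, B cell and monocyte markers 0 rose with it. At an unadjusted p 1, 0 and 3 of these were positive, and 2 T and NK markers were negative. The share of all named genes at an unadjusted p was not computed for the index fits. Of the hepatocyte, neutrophil, plasmacytoid dendritic and stellate cell markers 0 were called on either index, with 1 stellate marker positive and 1 plasmacytoid dendritic cell marker negative on the type I index at an unadjusted p.

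The mean level of the T and NK markers ranged from 3.02 in animal 84 through a median of 3.40 to 5.50 in animal 87. It correlated with the gamma index at r = 0.784 and rho = 0.541 (adjusted permutation p = 0.00018 and 0.00036 over 18 relations) and at 0.711 without the 2 mice farthest on that index. The 2 mice left out there were animals 10 and 235, so animal 87, with a gamma index of 2.07, was kept. The T and NK level was 4.62 in animal 10 and 4.51 in animal 235, and the next highest was 3.89 in animal 24. Within the stretches r was 0.947, 0.769, 0.907 and 0.257. Animals 10, 87 and 235 each lie in a different stretch, and the stretch at 0.257 holds none of them. The relation without all 3 of these mice was not tested. The defining marker Cd3e was at a median of 4.23 and reached 8.25, while Klrb1c stayed at 2.41 to 3.28. With the type I index the T and NK level correlated at 0.279 (adjusted permutation p = 0.113).

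The Kupffer cell markers, which name the resident macrophages of the liver, ranged in mean level from 6.19 in animal 91 through 7.73 to 10.21 in animal 235. This level correlated with both indices, at r = 0.603 for type I and 0.655 for gamma (adjusted permutation p = 0.00018 and 0.00036), and within the stretches at 0.917, 0.403, 0.727 and 0.451 for type I and at 0.835, 0.809, 0.944 and 0.350 for gamma. The B cell level, 3.17 in animal 84 and 7.34 in animal 10, correlated with the gamma index at 0.696, but at 0.297 without the 2 farthest mice. The monocyte level reached 7.35 in animal 10 and correlated with the type I index at 0.517 and rho 0.515. Its r with the gamma index was 0.585 with rho at 0.157, so that relation rested on few mice. Of the 5 monocyte markers, Fn1 had a median of 11.72 and the others had medians of 5.55 or less, so the height of this level was set largely by Fn1. The type I slope of Fn1 was 0.02, and it was not called on either index. The endothelial level correlated with the type I index at 0.527 and rho 0.541 (adjusted permutation p = 0.00036 for both). Within the stretches its r was 0.356, 0.781, 0.335 and 0.193, so this relation was loose outside the second.

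With the Kupffer and the T and NK levels as covariates, 2 of 6 Gbp, Irgm and Igtp members were called on the gamma index in place of 4, the 2 being Irgm2 (slope 0.40, adjusted p = 0.0332) and Irgm1 (0.22, 0.0452), while Igtp (0.46, 0.0908), Gbp7 (0.27, 0.0815) and Gbp3 (0.25, 0.157) were no longer called. Without these covariates the slopes were 0.25, 0.07, 0.40, 0.32 and 0.27 in the same order. Standard errors were larger with the covariates, at 0.13 against 0.09 for Igtp and 0.08 against 0.06 for both Gbp7 and Gbp3. Cxcl10 was still called on the difference of slopes and Irf1 was not (adjusted p = 0.239). The part of cell content in the members' levels was otherwise not tested. Animal 84, the highest for 14 members, had the lowest mean level of the T and NK markers and of the B cell markers, and a Kupffer level of 6.48 (median 7.73 over mice). Its endothelial level (8.67, median 7.99), monocyte level (6.59, median 5.63) and plasmacytoid dendritic cell level (4.34, median 3.03) lay above the medians. Of the 5 plasmacytoid dendritic cell markers, Klk1 ranged from 2.05 to 11.43 over mice. The others reached at most 3.73 (Siglech), 2.87 (Ccr9), 5.23 (Cox6a2) and 3.45 (Pacsin1), so that level in animal 84 rested on Klk1.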

How the data were processed

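The deposited values are log2 signals, and the submitters' processing notes name RMA and Affymetrix Expression Console 1.4.1 as the authors' tools. RMA subtracts background, forces arrays to 1 distribution by quantile normalisation and combines probes into probe sets, so a change in total RNA between livers would not be visible. The genome build is not given in the sources used here. Of 41345 probe sets, 23521 carried 1 symbol, 1814 several and 16010 none, and each of the 34 measured members had 1 single-symbol probe set.

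All named genes were fitted with limma 3.58.1 in R 4.3.3 (lmFit, eBayes with trend) on both indices jointly, and in a second fit on the animal number. An index is the mean of its genes' standardised values. Relations over mice used permutation tests with 100000 resamples, two-sided (numpy 2.4.6, scipy 1.17.1, pandas 2.3.3, Python 3.11.15). Spread between mice is biological and technical together, as each mouse had 1 array. A mouse was taken to stand apart where its array's median correlation with the other arrays, over genes at or above the median level, was below the lower quartile by over 3 interquartile ranges. Array number and signal over background limit the precision.

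The members, index genes, lists and stretches were chosen with earlier results of these data known. Named besides members were the 5 genes with the largest t on each index, the pathway genes that were called, and index genes. Ifna1, Ifna4, Ifnb1, Ifnl2, Ifng, Cd3e, Klrb1c, Fn1 and Alb were named in addition, after their values were seen. The fits were tested on simulated data. Alternatives covered probe sets, a level filter, array centring, ranks, stretches, the animal number, cell type levels and the first array component as covariates, each index alone, the gamma index without 4 genes of the MHC region, and the leaving out of mice.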

Additional observations from a re-analysis of the deposited data

How the results depend on the processing

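Under the 17 alternatives tried, the count of Ifit, Oas and Mx genes called on the type I index stayed between 7 and 9, and that of all members between 23 and 31. The level filter left 30 members, without Ifit2, Mx1, Trim30a and Gbp6. There 7 Ifit, Oas and Mx genes and 26 members were called, and no call of a remaining member was lost. The gamma counts were less stable. With normal scores of ranks in place of signals, limma called 0 Gbp, Irgm and Igtp genes on the gamma index (5 at an unadjusted p), 2 members in all, and 0 Ifit, Oas and Mx genes negatively (1 unadjusted). The same setting left 2 members with a larger type I slope and 0 with a larger gamma slope (1 unadjusted), and 167 and 88 named genes called positive on the type I and gamma index. Without the 2 mice farthest on the gamma index, 2 genes of the Gbp, Irgm and Igtp family, 0 negative type I family genes (3 unadjusted), 0 larger gamma slopes (3 unadjusted) and 272 named genes on the gamma index were called, and the indices correlated at r = 0.273. With the Kupffer and T and NK levels as covariates these counts were 2, 0 (3 unadjusted), 1 and 110, with 4 members called on the gamma index and r = 0.267 (permutation p = 0.0588). Without animal 10 they were 2, 1 and 0 (3 unadjusted), with 4 members called. Without the 2 mice farthest on the type I index, 1 negative type I family gene and 137 named genes on the type I index were called. Without the 4 mice that stand apart the values were 1 and 285, with 1 member called on the animal number. Without the 6 that stand apart over all genes they were 1 and 278, with 2 members and 1337 named genes called on the animal number. Without animal 84 they were 1 and 273. With each index alone, 12 members were called on the gamma index and 0 type I family genes negatively (0 unadjusted), 1110 and 991 named genes were called positive, and the gamma slope of Ifit1 turned to 0.06. Without MHC region genes 1 member had a larger gamma slope. The leaving out of the 6 mice, and of animals 10, 84 and 235 singly, was chosen after seeing the data. Where mice were left out, fewer mice were fitted, and the cause of the changes in counts was not tested. No paired analysis was possible because the labels give 1 group. The array has no detection calls, so low members such as Mx1 and Gbp6 may lie near background, where changes are understated.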
